A study of Mus musculus with 30 samples.

Results

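Schwann cells are the glia of peripheral nerve, and their genes can be read in whole muscle because the nerve branches that enter a muscle are homogenized with it. The genes described here were the 7 rows of the deposited expression table, of 21073 genes in all, whose symbols were MBP, PMP22, PRX, MAG, S100B, SOX10 and NGFR. They were chosen by name, with earlier results of these data known. All 7 were found, and each was measured in all 30 mice.

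The samples were extensor digitorum longus (EDL) muscles, a fast muscle of the hind limb, from wild-type SJL mice. Experimental autoimmune encephalomyelitis (EAE), a model of multiple sclerosis, was induced with a peptide of the myelin proteolipid protein (PLP139-151) in complete Freund's adjuvant (CFA), without pertussis toxin. OVA-immunized mice received ovalbumin in the same adjuvant, so they controlled for CFA, and unimmunized mice received neither. Muscles were taken on day 14, near the peak of disease, and on day 40, in remission, from 5 mice of each treatment on each day, and a mouse was sampled on 1 day only. All mice shared the strain and genotype, and an age was not given in the labels.

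Myelinating Schwann cells wrap a single axon in compact myelin, while non-myelinating Schwann cells hold bundles of small axons. SOX10 is needed throughout the lineage, and with EGR2 it drives the genes of the myelin sheath. After loss of an axon, Schwann cells lower their myelin genes and raise others, among them NGFR and JUN. EAE is foremost a disease of the central nervous system, where oligodendrocytes make myelin and share MBP and MAG with Schwann cells.

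For orientation, the DNA before the annotated start is shown for 3 of the 7 genes. The levels of 2 moved together from mouse to mouse (PRX and PMP22), and 1 was called lower in EAE-induced than in unimmunized mice on day 14 (MAG). Each run covers the 250 bases before the transcript start, 5′ to 3′ on the gene's strand, from RefSeq on GRCm38.p6, the assembly also called mm10. Capitals mark any match, on either strand, to a core motif of the SOX family (ACAANG, or CNTTGT on the other strand), of the EGR family (GTGGGNG or CNCCCAC) or of the TEAD family (GGAATG or CATTCC). No 2 of the marked matches overlapped.
PRX, chr7:27499074-27499323, plus strand: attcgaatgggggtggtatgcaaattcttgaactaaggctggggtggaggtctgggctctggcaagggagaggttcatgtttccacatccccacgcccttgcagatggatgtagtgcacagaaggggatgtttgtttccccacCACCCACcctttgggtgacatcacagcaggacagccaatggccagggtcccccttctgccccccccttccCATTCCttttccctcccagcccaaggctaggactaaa
PMP22, chr11:63128732-63128981, plus strand, the most upstream of its 4 listed starts: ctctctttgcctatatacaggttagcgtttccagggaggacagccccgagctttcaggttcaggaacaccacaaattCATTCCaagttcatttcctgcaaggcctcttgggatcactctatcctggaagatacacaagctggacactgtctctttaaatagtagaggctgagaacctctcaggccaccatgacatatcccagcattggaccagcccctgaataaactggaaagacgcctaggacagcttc
MAG, chr7:30914923-30915172, minus strand, the most upstream of its 3 listed starts: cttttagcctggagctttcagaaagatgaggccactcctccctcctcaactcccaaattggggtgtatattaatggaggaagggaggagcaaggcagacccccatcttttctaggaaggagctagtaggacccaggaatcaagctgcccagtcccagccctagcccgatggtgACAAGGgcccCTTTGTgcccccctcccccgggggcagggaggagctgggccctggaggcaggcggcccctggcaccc
The MAG run held 2 SOX matches that face each other, beginning 77 and 67 bases before the start. Runs before the other listed MAG starts also held SOX matches, with an EGR match 35 bases before 1 start and a TEAD match 227 bases before another. The other listed PMP22 starts had no match. The PRX run held an EGR match that began 107 bases and a TEAD match that began 37 bases before the start, and the PMP22 run held a TEAD match that began 173 bases before it. Such short motifs are common. A SOX match lay in 36.3% of all 32851 promoter runs of this length, an EGR match in 28.1% and a TEAD match in 12.6%. Promoters were available for 5 of the 7 genes.

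Levels are given as RPKM, reads per kilobase of transcript scaled to the size of the library, which corrects for gene length and so allows genes to be ranked. PMP22, a membrane protein of compact myelin, was the most abundant of the 7, with a mean of 46.7 RPKM over the 30 mice. Next came MBP, which holds the cytoplasmic faces of myelin together, at 7.39 RPKM, and PRX, a scaffold of the myelinating Schwann cell membrane, at 5.63 RPKM. S100B, a calcium-binding protein of glia, had a mean of 3.14 RPKM. SOX10 followed at 1.51 RPKM, MAG, an adhesion protein of the inner myelin wrap, at 0.983 RPKM, and NGFR, the p75 neurotrophin receptor, at 0.915 RPKM.

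The depth behind these levels was uneven. Each library held an estimated 18200000 to 31600000 reads over genes (median 21700000), estimated from the smallest steps between deposited values. The median mouse then had 2041 reads for PMP22, 1008 for MBP and 629 for PRX. It had 91.7 reads for S100B, 85.2 for SOX10, 60.9 for NGFR and 51.0 for MAG. MAG, SOX10 and NGFR had no group with a mean above 3 RPKM, the floor the study used for calling changed genes, and S100B passed it in 3 of the 6 groups. These levels came from whole muscle, in which fewer Schwann cells and less RNA per Schwann cell cannot be told apart.

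The label of the genes was checked against markers of oligodendrocytes, the other cell that makes MBP and MAG. MOBP was at 0 in all 30 mice and OPALIN in 29 of 30. MOG reached at most 0.0791 RPKM and ERMN 0.0967 RPKM in any mouse. ASPA, the remaining gene of that list, reached 5.79 RPKM, and is also expressed outside the nervous system. The 9 Schwann cell markers were all detected, with summed levels of 16.05 to 41.10 RPKM per mouse. They include MBP, PRX, S100B and SOX10, so they do not check the label of those genes separately.

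**Figure D1:**
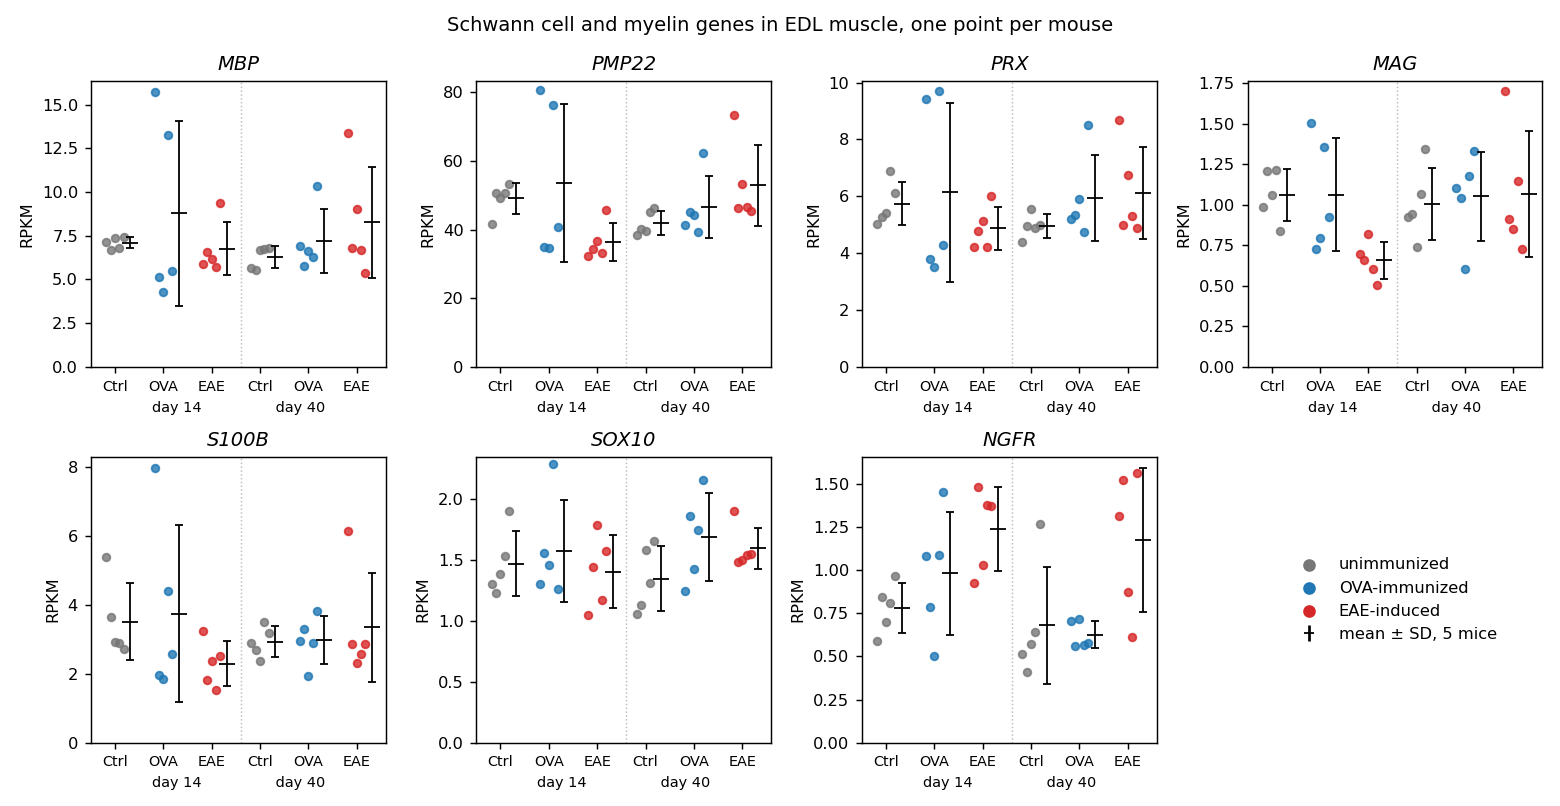
RPKM (vertical axes, starting at 0) of the 7 genes in each of 30 EDL muscles by group, with 1 point per mouse and the mean ± SD of 5 mice beside each group. OVA-immunized mice 1 and 4 of day 14 were the 2 highest of their group for MBP, PMP22, PRX, MAG and S100B, and MAG in EAE-induced mice on day 14 lay below every unimmunized mouse of that day.

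Some muscles of OVA-immunized and EAE-induced mice stood apart from their group, and the comparisons that follow have to be read with this spread. On day 14, MBP was 15.7, 5.15, 4.28, 13.2 and 5.47 RPKM in OVA-immunized mice 1 to 5. Mice 1 and 4 were thus far above the other 3, which in turn lay below all 5 unimmunized mice. PMP22 showed the same split, with 80.7 and 76.3 RPKM in mice 1 and 4 and 34.6 to 40.8 RPKM in the others. PRX was 9.43 and 9.72 RPKM in those mice and 3.50 to 4.27 RPKM in the others. Each level of MBP, PMP22 and PRX in mouse 1 was 2.13-fold (PMP22) to 2.96-fold (MBP) the median of the other mice of its group. On day 40, EAE-induced mouse 1 was the highest of its group for MBP at 13.4 RPKM and for PMP22 at 73.3 RPKM. OVA-immunized mouse 5 was the highest of its group on that day, at 10.4 and 62.2 RPKM. MBP varied least in unimmunized mice on both days, and lay between 6.70 and 7.42 RPKM on day 14 and between 5.51 and 6.79 RPKM on day 40.

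The myelin genes rose and fell together from mouse to mouse within the groups. After each group's mean had been subtracted from log2(RPKM + 0.1), Pearson's r over the 30 mice was 0.94 between MBP and PMP22, 0.94 between MBP and PRX and 0.96 between PMP22 and PRX. Spearman's rho was 0.83, 0.86 and 0.91 for the same pairs. Over the 21 pairs of the 7 genes the permutation p adjusted by Benjamini-Hochberg was 0.00014 for each of these 3 Pearson correlations, and 0.00077, 0.00077 and 0.00021 for the rank correlations. They stayed at 0.86, 0.86 and 0.89 without OVA-immunized mice 1 and 4 of day 14, and without the 2 mice farthest from the median they were 0.91, 0.91 and 0.93. Within days they were 0.96, 0.95 and 0.97 on day 14 and 0.90, 0.92 and 0.91 on day 40. Genes measured in the same library share that muscle's content of nerve, and its part in these correlations was not tested.

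Other genes of the 7 followed less closely. MAG and S100B had r = 0.72 with each other (rho = 0.67, adjusted permutation p = 0.00215 and 0.0043), and 0.62 without the 2 OVA-immunized mice. S100B with MBP gave r = 0.73 but 0.47 without those mice, and its rank correlation had an adjusted permutation p of 0.0531. NGFR was the least tied, with r between 0.13 (MAG) and 0.33 (PMP22) and adjusted permutation p of 0.257 or more. SOX10 had r between 0.11 (S100B) and 0.49 (PRX). In all, 12 of the 21 pairs had an unadjusted permutation p for r below 0.05, and 7 of 21 without OVA-immunized mice 1 and 4 of day 14.

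The most similar genes among all with a mean above 1 RPKM were found by the same measure over the 30 mice. MBP, PMP22 and PRX each had the other two among the 3 most similar genes, with the values of r given above. For MAG they were S100B (0.72), ZFP444 (0.71) and NDRG1 (0.69). For S100B they were RYK (0.83), CELF2 (0.82) and SPPL3 (0.82), for SOX10 CAPN5 (0.80), VPS35L (0.80) and IL6RA (0.76), and for NGFR IL4RA (0.71), TRIOBP (0.66) and ALG2 (0.64). These are the highest of 10988 or more correlations and are given as a description.

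**Figure D2:**
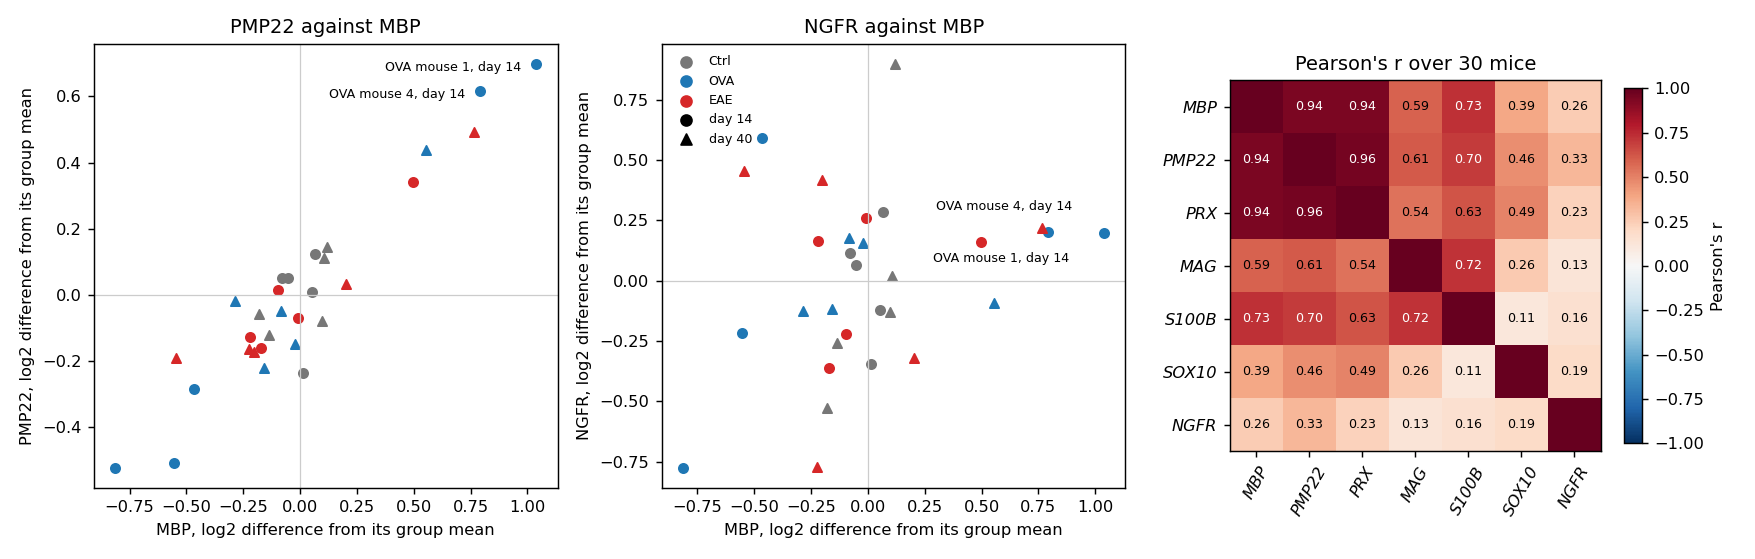
Deviation of log2(RPKM + 0.1) from the group mean in 30 mice, PMP22 against MBP (left) and NGFR against MBP (middle), with colours for treatment and circles or triangles for day 14 or day 40, and Pearson's r for all 21 pairs of the 7 genes (right). PMP22 followed MBP closely (r = 0.94), and NGFR did not (r = 0.26).

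S100B also moved with the balance of long and short transcripts in a library. A length index was taken for each mouse from the log2 deviation of each gene from its median in the mouse's group. It was the median deviation of genes over 5000 bases minus the median deviation of genes under 1500 bases. In 4 mice of day 14 (unimmunized 1, OVA-immunized 1 and 5, EAE-induced 1) it was between -0.813 and -0.581, while the other 26 lay between -0.381 and 0.490. S100B was higher where the index was lower (r = -0.67, rho = -0.60, adjusted permutation p = 0.0052 and 0.0152 over 8 genes, and r = -0.52 without the 2 farthest mice). At 1484 bases and a mean above 3 RPKM, S100B was itself among the 1414 short genes of the index. For short genes the index tends to give a negative r by construction, so this r does not set S100B apart from them. SOX10 had an estimate of the other sign that did not pass (r = 0.43, rho = 0.42, adjusted permutation p = 0.104 and 0.0862). MBP, PMP22, PRX, MAG and NGFR had r between -0.38 and -0.03, with adjusted permutation p of 0.104 or more. Of these, MBP (6695 bases) and PRX (5433 bases) were among the 1561 long genes of the index. The part of this index in the levels of S100B was not tested beyond the fits that hold it as a covariate or leave out its 4 low mice.

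**Figure D3:**
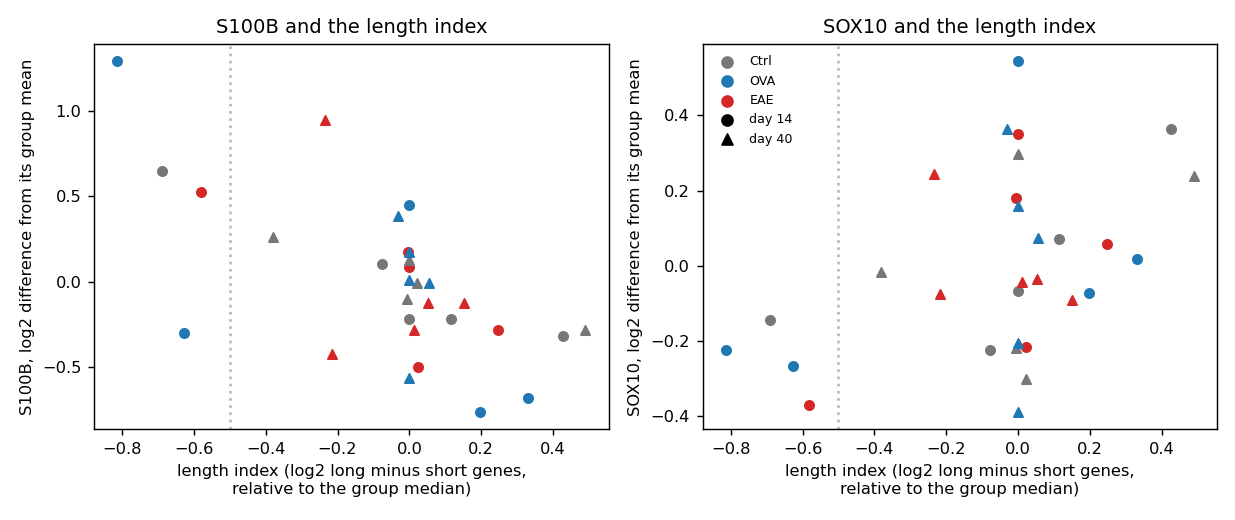
Deviation of S100B (left) and SOX10 (right) from the group mean in log2 units against the length index of the library, for 30 mice, with the cut at -0.5 dotted. S100B, itself among the short genes of the index, fell as the index rose (r = -0.67), and the 4 mice left of the line were all of day 14.

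At the peak of EAE, 2 of the 7 genes were called against unimmunized mice, MAG lower and NGFR higher, near the 25.5% called among all genes. The abundant myelin genes did not pass the test. MAG was 0.696, 0.660, 0.816, 0.606 and 0.506 RPKM in EAE-induced mice 1 to 5 on day 14. In unimmunized mice it was 0.984, 1.21, 1.06, 1.22 and 0.836 RPKM. Every EAE-induced mouse was below every unimmunized mouse. The mean was 0.657 ± 0.114 RPKM against 1.06 ± 0.159 RPKM (SD, n = 5 each). The level fell by 0.62 on the log2 scale (SE 0.19, limma adjusted p = 0.0185).

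NGFR went the other way. It was 0.927, 1.48, 1.03, 1.38 and 1.37 RPKM in EAE-induced mice and 0.588, 0.846, 0.703, 0.813 and 0.965 RPKM in unimmunized mice of day 14. EAE-induced mouse 1 lay below unimmunized mouse 5, so that the groups overlapped by these 2 mice. The log2 difference was 0.60 (SE 0.22, limma adjusted p = 0.0431), from a mean of 0.783 ± 0.144 to 1.24 ± 0.243 RPKM (SD, n = 5 each).

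These 2 were called, by an adjusted p below 0.05 and a change over 1.5-fold, among the 3 genes that had no group mean above 3 RPKM. In the table of genes above 0.1 RPKM from which their tests came, 25.5% of 14252 genes were called in this comparison (11.6% higher and 13.9% lower), and 25.7% had groups that did not overlap. The 2 of 7 called were thus near the share of all genes, and the 1 of 7 without overlap (MAG) was below it. Both calls were narrow. MAG was no longer called without unimmunized mouse 2 or 4 (fell by 0.57 either way) or without EAE-induced mouse 5 (adjusted p = 0.0527), and NGFR was no longer called in 7 of 10 fits that left out 1 mouse (adjusted p = 0.0566 to 0.104). MAG was also not called after quantile normalization (adjusted p = 0.0841), nor NGFR after median-of-ratios scaling (adjusted p = 0.0516) or with no filter (adjusted p = 0.0589), and with a pseudocount of 1 RPKM neither gene passed 1.5-fold.

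None of the 4 genes above 3 RPKM was called in that comparison, in which 26.4% of 8771 such genes were. PMP22 was 32.3, 34.4, 36.5, 33.1 and 45.8 RPKM in EAE-induced mice against 41.5, 50.7, 49.2, 50.7 and 53.3 RPKM in unimmunized mice. Only EAE-induced mouse 5 reached into the range of the unimmunized group. The log2 difference of PMP22 was -0.44 (SE 0.22, limma adjusted p = 0.106). The wide spread of the OVA-immunized mice enters this error. In a fit of the compared groups alone the adjusted p was 0.0107, with a fold still under 1.5.

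S100B was 3.25, 1.81, 2.37, 1.54 and 2.52 RPKM in EAE-induced mice and 5.39, 3.66, 2.91, 2.90 and 2.71 RPKM in unimmunized mice. Only EAE-induced mouse 1, of low length index, exceeded 3 of the unimmunized mice. The log2 difference was -0.59 (SE 0.34, limma adjusted p = 0.156). With the length index as a covariate, a fit added after the data were seen, the limma adjusted p was 0.0357. The index was centred within each group, so this fit could change the error of the difference but not the difference itself. Without the 4 mice of low length index, also chosen after the data were seen, the difference was -0.56 (limma adjusted p = 0.0775).

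MBP, PRX and SOX10 moved less. MBP was 5.87, 6.59, 6.19, 5.68 and 9.40 RPKM in EAE-induced mice, 4 of them below the unimmunized range and mouse 5 above it (log2 difference -0.09, SE 0.29, limma adjusted p = 0.809). PRX lay between 4.20 and 6.01 RPKM in EAE-induced and between 5.04 and 6.90 RPKM in unimmunized mice (-0.24, SE 0.25, limma adjusted p = 0.456). SOX10, the factor that marks the lineage, lay between 1.04 and 1.78 RPKM and between 1.23 and 1.90 RPKM (-0.07, SE 0.18, limma adjusted p = 0.778). The median log2 difference of the 7 genes was -0.24, with 6 of 7 negative, beside a median of 0.02 over all 14252 genes tested.

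Against OVA-immunized mice of day 14, the differences in MAG, PMP22, MBP and PRX depended on OVA-immunized mice 1 and 4. None of the 7 genes was called, where 20.3% of genes above 3 RPKM and 18% of genes above 0.1 RPKM were. MAG was 1.505, 0.726, 0.793, 1.35 and 0.926 RPKM in OVA-immunized mice, with 2 of them inside the EAE range. The MAG difference was -0.58 (SE 0.19, limma adjusted p = 0.0333), under 1.5-fold, and -0.28 (adjusted p = 0.283) without OVA-immunized mice 1 and 4. MAG was called without EAE-induced mouse 1 or 3 or OVA-immunized mouse 2, 3 or 5 (limma adjusted p = 0.016 to 0.046). It was not called when any other mouse of the 2 groups was left out. With median-of-ratios scaling it was called (-0.62, limma adjusted p = 0.0252), so the missing call was narrow. NGFR was 1.08, 0.788, 0.503, 1.09 and 1.45 RPKM in OVA-immunized mice, spread across both other groups, and its difference was 0.36 (SE 0.22, limma adjusted p = 0.243). PMP22 differed by -0.46 (SE 0.22, limma adjusted p = 0.104), and by -0.02 (adjusted p = 0.916) without OVA-immunized mice 1 and 4. Without them MBP and PRX were higher in EAE-induced mice by estimate, at 0.42 (adjusted p = 0.0522) and 0.32 (adjusted p = 0.109), where both estimates against unimmunized mice were negative. S100B differed by -0.51 (SE 0.34, limma adjusted p = 0.247). It was 7.97 and 4.40 RPKM in OVA-immunized mice 1 and 4 and 1.85 to 2.58 RPKM in the others, beside 1.54 to 3.25 RPKM in EAE-induced mice. The S100B difference was not tested without mice 1 and 4 together.

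OVA-immunized and unimmunized mice of day 14 had no called gene among the 7, where 0.142% of genes above 3 RPKM and 0.351% above 0.1 RPKM were called by limma. The log2 differences ran from -0.08 (S100B) to 0.24 (NGFR), with SE from 0.18 to 0.34. These were means over the 2 high and 3 low OVA-immunized mice. Without mice 1 and 4 the differences were -0.51 for MBP, -0.41 for PMP22, -0.56 for PRX, -0.66 for S100B and -0.34 for MAG (limma adjusted p of 0.254 or more). What set the OVA group apart was its spread, as the highest MBP level was 3.68-fold the lowest in OVA-immunized mice and 1.11-fold in unimmunized mice. All of these comparisons share mice, so they are not independent of each other.

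**Figure D4:**
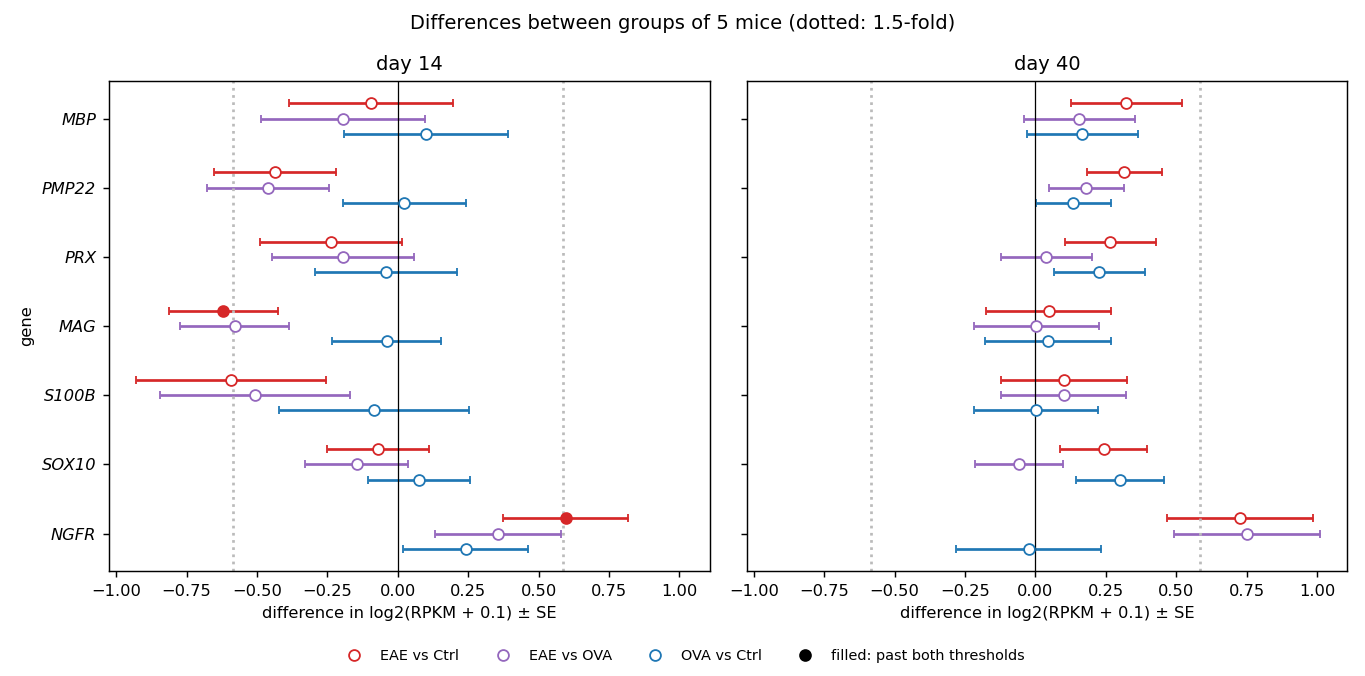
Difference in log2(RPKM + 0.1) between groups of 5 mice (horizontal axis), with SE, for the 7 genes on day 14 (left) and day 40 (right). The 2 filled points, MAG (-0.62) and NGFR (0.60) in EAE-induced against unimmunized mice on day 14, passed both the adjusted p and the fold threshold (dotted lines).

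In remission, on day 40, no gene of the 7 was called in any comparison. EAE-induced against unimmunized mice had 0.46% of genes above 3 RPKM and 0.407% above 0.1 RPKM called, EAE-induced against OVA-immunized mice 0.209% and 0.0485%, and OVA-immunized against unimmunized mice 0 of either. MAG was 1.70, 0.910, 0.849, 1.15 and 0.726 RPKM in EAE-induced mice, around the unimmunized mice at 0.921, 0.945, 0.741, 1.07 and 1.34 RPKM. Its log2 difference was 0.05 (SE 0.22, limma adjusted p = 0.910).

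NGFR still had its highest values in EAE-induced mice, at 1.32, 1.52, 0.873, 0.612 and 1.56 RPKM. Unimmunized mice had 0.513, 0.409, 0.571, 0.644 and 1.27 RPKM, and OVA-immunized mice 0.704, 0.562, 0.717, 0.565 and 0.577 RPKM. In EAE-induced mice, 4 of 5 were above all OVA-immunized mice, and mouse 4 was within their range. The limma difference from unimmunized mice was 0.73 (SE 0.26, adjusted p = 0.121). From OVA-immunized mice it was 0.75 (SE 0.26, adjusted p = 0.185), so that neither was called.

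PMP22 on day 40 was 73.3, 46.2, 53.2, 46.4 and 45.5 RPKM in EAE-induced mice and 38.4, 40.2, 39.6, 45.1 and 46.2 RPKM in unimmunized mice. EAE-induced mice were at the top of the range or above it, where on day 14 all but mouse 5 had been below it. The day 40 difference was 0.31 (SE 0.13, limma adjusted p = 0.144). MBP differed by 0.32 (SE 0.20, adjusted p = 0.284), PRX by 0.27 (SE 0.16, adjusted p = 0.280), SOX10 by 0.24 (SE 0.16, adjusted p = 0.337) and S100B by 0.10 (SE 0.22, adjusted p = 0.779), all by limma.

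The change of the EAE effect from day 14 to day 40 was tested as an interaction in a fit of all 30 mice. The difference between EAE-induced and unimmunized mice was 0.75 higher on day 40 for PMP22 (SE 0.26, limma adjusted p = 0.0272), the 1 gene of 7 called, where 26.7% of 14813 genes were. Without EAE-induced mouse 1 of day 40 it was 0.63 and not called (adjusted p = 0.0653). Median-of-ratios scaling, which shifts all genes alike, moved it to 0.88 (adjusted p = 0.0126). The interaction of MAG was 0.67 (SE 0.30, limma adjusted p = 0.0822), of S100B 0.69 (SE 0.42, adjusted p = 0.203) and of NGFR 0.13 (SE 0.35, adjusted p = 0.801). All 7 estimates were above 0, with a median of 0.50 beside -0.11 over all genes, and the 7 share their mice. Against OVA-immunized mice no gene of the 7 was called, with 16.2% of genes called, and the estimate for PMP22 was 0.64 (SE 0.26, limma adjusted p = 0.0781). The difference between OVA-immunized and unimmunized mice gave no call among the 7 or among all genes in limma, where 1420 of 14813 genes had an unadjusted p below 0.05.

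Between days within a treatment, MAG rose by 0.58 (SE 0.21, limma adjusted p = 0.0302) and PMP22 by 0.52 (SE 0.19, limma adjusted p = 0.0265) in EAE-induced mice, both under 1.5-fold and so not called. No gene of the 7 was called there, nor in the other treatments, while of all genes 20.9% were called in EAE, 9.87% without immunization and 5.78% after OVA. NGFR had log2 differences of -0.12 (SE 0.25, adjusted p = 0.741) in EAE-induced and -0.52 (SE 0.25, adjusted p = 0.204) in OVA-immunized mice, by limma. Day and set of mice cannot be told apart here, since each mouse was sampled once.

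Wider lists of Schwann cell genes were counted in the fit of genes above 0.1 RPKM, where 25.5% of all genes were called between EAE-induced and unimmunized mice of day 14 (11.6% higher and 13.9% lower). Of 9 myelin sheath proteins, 0 were called in that comparison, with 5 estimates above and 4 below 0. PMP2, a lipid carrier of peripheral myelin, differed by -0.92 (SE 0.39, limma adjusted p = 0.0704). Of 14 genes of Schwann junctions, nodes and basal lamina, 1 was called higher, the nodal adhesion molecule NRCAM (0.68, SE 0.24, limma adjusted p = 0.0322). In the fit of genes above 3 RPKM, 2 of the 7 tested genes of that list were called, beside 26.4% of all genes there. Of the 8 tested genes each of axon to Schwann signalling and of myelin lipids and neuropathies, none was called, and ERBB3, a receptor of axonal neuregulin, differed by 0.89 (SE 0.42, limma adjusted p = 0.102). ERBB3, a long gene of 6016 bases, also moved with the length index (r = 0.89, rho = 0.84, adjusted permutation p = 8e-05 and 0.00016).

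Among the 9 tested transcription factors of the lineage, NFATC4 was lower in EAE-induced than in unimmunized mice of day 14 (-0.63, SE 0.13, limma adjusted p = 0.00146). EGR2, the partner of SOX10, was under 1.5-fold in that comparison (0.55, SE 0.21, limma adjusted p = 0.0466) and was called higher against OVA-immunized mice (1.05, SE 0.21, limma adjusted p = 0.00156). Mean EGR2 levels on day 14 were 0.820 ± 0.247 RPKM after OVA, 1.19 ± 0.315 RPKM without immunization and 1.78 ± 0.397 RPKM in EAE (SD, n = 5 each).

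The ligands and partners of NGFR moved in different directions. Of 7 tested neurotrophins and receptors, NTF5, the gene of neurotrophin 4, fell by 1.71 (SE 0.29, limma adjusted p = 0.000351) and NTF3 by 0.88 (SE 0.19, limma adjusted p = 0.00211) in EAE-induced against unimmunized mice of day 14. SORT1, the sortilin receptor that pairs with NGFR, rose by 0.89 (SE 0.17, limma adjusted p = 0.000661). BDNF differed by 0.07 (SE 0.25, limma adjusted p = 0.845). NTF5, NTF3 and SORT1 were called in the same directions against OVA-immunized mice, and none of the 3 was called on day 40.

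Of the 10 tested genes of non-myelinating and repair Schwann cells, 3 rose at the peak of EAE, beside 11.6% of all genes called higher. No gene of the list was called lower, though 4 of the 10 estimates were below 0. NCAM1, an adhesion molecule, rose by 2.49 (SE 0.22, limma adjusted p = 1.24e-06), GDNF, a trophic factor for motor neurons, by 2.61 (SE 0.28, limma adjusted p = 6.61e-06) and JUN by 1.59 (SE 0.20, limma adjusted p = 3.06e-05). Muscle fibres also express these genes, and NCAM1 is on the list of denervated muscle fibre as well. Of that list of 10, 8 rose in the same comparison, with a summed level of 277 to 1109 RPKM in EAE-induced and 89.8 to 126 RPKM in unimmunized mice. The part of muscle fibres in the rise of NCAM1, GDNF and JUN was not tested.

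Markers of other cells of the muscle moved in the comparison in which MAG and NGFR were called. Of 7 fibroblast markers, 6 were lower in EAE-induced than in unimmunized mice of day 14, and the summed level was 316 to 502 RPKM against 870 to 1425 RPKM. Of 6 macrophage markers 3 were lower (summed level 61.9 to 107 RPKM against 114 to 177 RPKM), and of 8 endothelial markers 3 were lower (83.7 to 124 RPKM against 109 to 146 RPKM). Of 5 slow fibre markers 3 were lower (839 to 1492 RPKM against 1510 to 2590 RPKM), and of 6 lymphocyte markers 2 (0.504 to 1.245 RPKM against 1.33 to 2.99 RPKM). Of 6 fast fibre markers 1 was lower (PVALB, summed level 27850 to 37520 RPKM against 43000 to 62400 RPKM). Of 6 adipocyte markers 1 was lower (CFD, 306 to 485 RPKM against 457 to 686 RPKM). Among all genes above 0.1 RPKM 13.9% were called lower in this comparison, and 1 of 6 is near that share. Of 4 markers of the perineurium, the sheath of nerve bundles, none was called, with summed levels of 10.0 to 13.3 RPKM against 5.72 to 11.8 RPKM. The 9 Schwann cell markers, which include MBP, PRX, S100B and SOX10, had 0 called. Their summed level was 20.60 to 27.65 RPKM in EAE-induced and 21.7 to 25.2 RPKM in unimmunized mice. No marker in any of these lists was at 0 in every mouse of a group. The part of these cells in the levels of MAG and NGFR was not tested.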

How the data were processed

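Poly(A) RNA-Seq was analysed from EDL muscle of 30 SJL mice, 5 in each of 6 groups named by the labels. Per the labels and the study's methods, the authors aligned paired reads to mm10 with Subread, counted them over RefSeq transcripts with featureCounts and deposited 1 table described as RPKM. The deposited values behave as log2(RPKM + 1), with 0.0001 where no read was counted (25.8% of values). Taken so, RPKM times transcript length summed to a median of 0.981 of the total that RPKM must give, against 0.128 if the values were RPKM and 19.9 if they were natural logs. They were converted back to RPKM on that reading. No column was without a sample.

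Log2(RPKM + 0.1) was fitted with limma 3.58.1 (R 4.3.3, trend on) over the 15 mice of a day, for genes with a mean above 3 RPKM in a compared group, as the study filtered. Genes were called at a Benjamini-Hochberg adjusted p below 0.05 over all genes tested and a change over 1.5-fold. MAG, SOX10 and NGFR, and S100B where it missed that floor, were tested in the same fit of genes above 0.1 RPKM, and comparisons between days in a fit of 30 mice. A pseudocount makes fold changes of low genes too small. Correlations were tested by 100000 permutations within groups, and 2 groups of 5 by exact 2-sided permutation. The fit was tested on simulated data. Reads were estimated from RPKM steps, so depth is approximate. No sequencing batch was given in the labels, and p-values measure the spread between these mice. Symbols are in capitals, as in the table.

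The 7 genes and the gene lists were chosen with earlier results of these data known. Named genes were the 7, the called genes of the Schwann cell lists (at most 5 per list and comparison), PMP2, EGR2, ERBB3 and BDNF, and the 3 most similar genes of each of the 7. Some items named by this rule are not reported here.

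Alternatives were another pseudocount, filter, scaling or fit, exact permutation, a replicate block, leaving out each mouse and, chosen after seeing the data, the length index as a covariate, leaving out its 4 low mice and leaving out OVA-immunized mice 1 and 4.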

Additional observations from a re-analysis of the deposited data

Results flagged for a closer look

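S100B in EAE-induced mouse 1 of day 40 was 6.14 RPKM, far from the other 4 mice of the group at 2.32 to 2.87 RPKM. SOX10 in the same mouse was 1.90 RPKM, against 1.49 to 1.55 RPKM in the others. Of 42 groups of 5 mice examined for the 7 genes, these 2 (4.76%) had a mouse past Dixon's 95% critical value, and chance gives about 1 in 20.

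The difference in PMP22 between EAE-induced and unimmunized mice changed with the day, by 0.75 on the log2 scale between day 14 and day 40 (limma adjusted p = 0.0272 for the interaction). EAE-induced mouse 1 of day 40 held the highest PMP22 of its group, and without that mouse the value was 0.63 (adjusted p = 0.0653).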

How the results depend on the processing

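Of 2513 values of single genes under an alternative, 2466 kept their side of the threshold (91 of them, not called in either fit, with a change of sign), 31 passed it only under the alternative, 16 lost it and none of the called values changed sign. For the 3 genes under 3 RPKM on day 14, the 2 calls became 0 with log2(RPKM + 1), 1 with no filter and 1 with quantile normalization. Between EAE-induced and unimmunized mice they were 0 to 2 when a mouse was left out. A call of MAG against OVA-immunized mice was added without EAE-induced mouse 1 or 3 or OVA-immunized mouse 2, 3 or 5. On day 40 the 0 calls became 1 by exact permutation, whose p was not adjusted. For the genes above 3 RPKM, the 0 calls between EAE-induced and unimmunized mice of day 14 became 1 by unadjusted exact permutation, 1 with the length index as a covariate, 2 at 0.1 RPKM, where MAG and NGFR enter, and 1 with no filter. Against OVA-immunized mice they were 0 to 1 when a mouse was left out. The 1 call of day dependence became 3 with median-of-ratios scaling and 2 with quantile normalization, and 0 to 2 when a mouse was left out (0 without EAE-induced mouse 1 of day 40). Between days within a treatment the 0 calls became 1 with median-of-ratios scaling, 1 with quantile normalization and 2 with no fold threshold, and 0 to 1 when a mouse was left out. Correlated pairs fell from 12 to 7 without OVA-immunized mice 1 and 4 of day 14. The cause of these shifts was not tested.

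Same-numbered mice correlated above 0.1 in 7 of 15 pairs on day 14 and 1 of 15 on day 40. Among pairs of different number, 24 of 60 on day 14 and 21 of 60 on day 40 did. Whether same-numbered mice shared more than a number cannot be told from so few pairs. With the replicate number as a block the calls were 2 for the 3 low genes on day 14 and 1 for day dependence, as without it, and no count changed. At a median of 51.0 reads for MAG and 60.9 for NGFR, small changes of these genes were not detectable.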
